A study of Homo sapiens with 12 samples.

Results

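A set of 190 protein-coding genes was detected in A375-BIR melanoma cells and was at or near 0 counts in A375 melanoma cells. A gene entered the set with at most 3 raw counts summed over the 4 usable A375 libraries and a mean of at least 10 CPM (a gene's counts scaled to the same total over genes in every library) over the 6 A375-BIR libraries. The rule took 190 of the 19586 protein-coding genes listed, out of 33694 genes of all types. It left out 14 further genes by the start of their symbols. These starts are shared by collagens, laminins, integrins, cadherins, matrix metalloproteases, ADAM proteases, semaphorins, Eph receptors, keratins and HLA genes. Other genes can share them, as EPHX3 does among the 14. The genes were chosen by their counts in A375 and their levels in A375-BIR, so that the contrast between the lines is given as a description and without a test. The difference between dabrafenib and DMSO within A375-BIR was not used by the rule, and it was tested.

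A375 is an established human melanoma line whose growth depends on an activated form of the kinase BRAF, and dabrafenib blocks that kinase. Melanoma lines that grow under BRAF inhibitors have often lost melanocytic genes and gained genes of other lineages, among them secreted factors, receptors and matrix proteins. A cell line carries most tissue-restricted genes in a silent state, so that genes detected in a line and absent from its parental counterpart can belong to lineages unrelated to the melanocyte.

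The groups were A375-BIR with 0.1% DMSO, A375-BIR with 200 nM dabrafenib, A375 with 0.1% DMSO and A375 with 200 nM dabrafenib. The labels name A375-BIR as the BRAF inhibitor resistant line, and whether it is 1 clone or a pool is not given in the sources used here. All cells were grown in RPMI with serum and sampled at 48 h, with 3 libraries per group that the labels call biological replicates. Mouse genes are listed in the files of A375 DMSO replicates 2 and 3, which entered nothing, so that the A375 side of the rule rests on 1 DMSO and 3 dabrafenib libraries.

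Gene counts per library ran from 391210 to 1100917 in A375-BIR and from 198690 to 1999840 in A375. The A375 DMSO library, which is the deepest, carries another run stamp than the other 9 libraries, and for that group the effects of run and treatment cannot be told apart. The 3 A375 dabrafenib libraries share their run stamp with A375-BIR. Without the A375 DMSO library the same rule took 373 genes in place of 190. The limit of 3 counts then covered fewer counts in all, and no untreated A375 library was left. The parts of depth, run and treatment in this number were not tested. In A375-BIR, the DMSO libraries correlated with each other at 0.956 to 0.971 over the 10236 genes tested, on the log2(CPM + 1) scale, and the dabrafenib libraries at 0.893 to 0.926. Dabrafenib replicate 3 had the fewest counts of the A375-BIR libraries, the lowest share of reads on genes (20.4%) and the highest shares of mitochondrially encoded counts (7.21%) and of the nuclear RNA MALAT1 (5.78%). Dabrafenib replicate 2 stood apart from its group in several of the genes described below.

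The 190 genes together held 0.655% to 0.752% of all gene counts in each A375-BIR library and 0.00490% to 0.0126% in each A375 library. In A375-BIR with DMSO the shares were 0.676%, 0.655% and 0.667%, and with dabrafenib 0.715%, 0.752% and 0.691%. All A375-BIR libraries thus lay close together. That they lay far above the A375 libraries follows from the rule. In the A375 libraries the set had 98 counts in DMSO replicate 1 and 62, 30 and 20 counts in the dabrafenib replicates. Over the A375 libraries 77 of the genes had 0 counts, 52 had 1, 25 had 2 and 36 had 3. A count of 0 over the 3155306 pooled A375 counts allows a level of up to 0.951 CPM, so that absence is bounded by depth and a low level is not excluded. Of these counts 1999840 came from the A375 DMSO library. The limit is 6.08, 6.47 and 15.1 CPM in the single A375 dabrafenib libraries, so that the pooled limit does not hold for treated A375 alone. For the genes with 0 counts, the mean in A375-BIR was at least 10.6-fold to at least 157-fold above the pooled limit. For genes with 1 to 3 counts, the ratio of pooled levels ran from 9.95 to 999. These limits and intervals cover counting error only. In bulk RNA, fewer cells that express a gene and less RNA of it per cell cannot be told apart.

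Most of the genes were low even in A375-BIR. The highest mean was 359 CPM and the median 18.4 CPM. The mean was at least 100 CPM for 12 genes, from 50 to 100 for 17, from 20 to 50 for 56 and below 20 for 105. All but 1 of the genes were detected in each of the 6 A375-BIR libraries. The exception was NTNG1, a membrane-anchored netrin, which stood at 11.8, 11.7 and 12.1 CPM with DMSO, at 20.6 and 20.4 CPM in dabrafenib replicates 1 and 3, and at 0 in dabrafenib replicate 2, where 3 counts would be 5.35 CPM. The 20 genes with the highest means held 46.4% of the counts of the set.

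**Figure D1:**
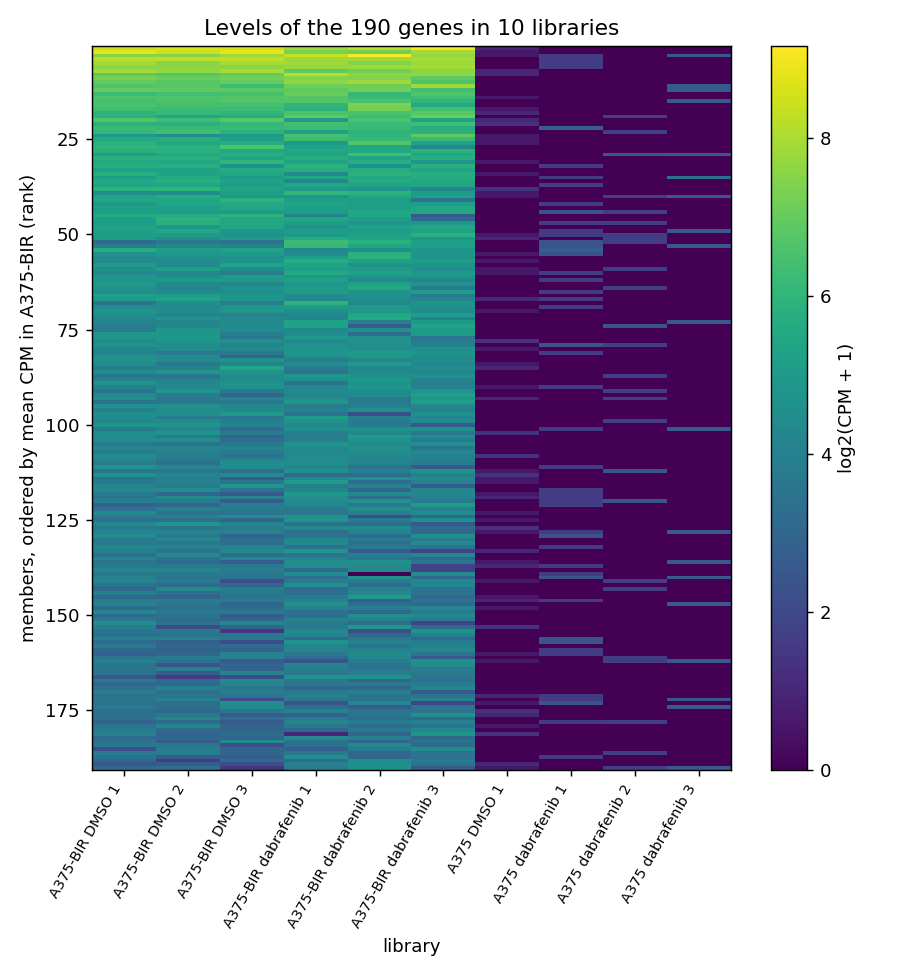
Level of each of the 190 genes (rows, ordered by mean CPM in A375-BIR) in each of 10 libraries (columns), as log2(CPM + 1) in colour. The 6 A375-BIR columns are filled down to the last row but for 1 cell. The 4 A375 columns are dark throughout, with 1 to 3 counts as scattered marks, as the rule fixes. The dark cell in an A375-BIR column is NTNG1 in dabrafenib replicate 2.

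IGFN1, an immunoglobulin and fibronectin repeat protein best known from skeletal muscle (ENSG00000163395, chromosome 1, 201190825 to 201228952), had the highest mean of the set. It stood at 336, 396 and 359 CPM in A375-BIR with DMSO and at 232, 310.2 and 521 CPM with dabrafenib, against 2 counts in the A375 DMSO library and 0 in the others. Its treatment groups overlapped (log2 change -0.04 ± 0.23 SE, adjusted p = 0.97). SOX11, a transcription factor of the developing nervous system (chromosome 2, 5692667 to 5701385), stood at 292, 312 and 304 CPM with DMSO and at 228, 234 and 243 CPM with dabrafenib. All 3 dabrafenib values lay below all 3 DMSO values, but the change of -0.35 ± 0.16 was not called (adjusted p = 0.301). GDA, the guanine deaminase (chromosome 9, 72114595 to 72257193), stood at 234, 178 and 247 CPM with DMSO and at 233, 173 and 227 CPM with dabrafenib, with groups that overlap. SOX11 and GDA each had 1 count over all A375 libraries, in dabrafenib replicate 1.

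**Figure D2:**
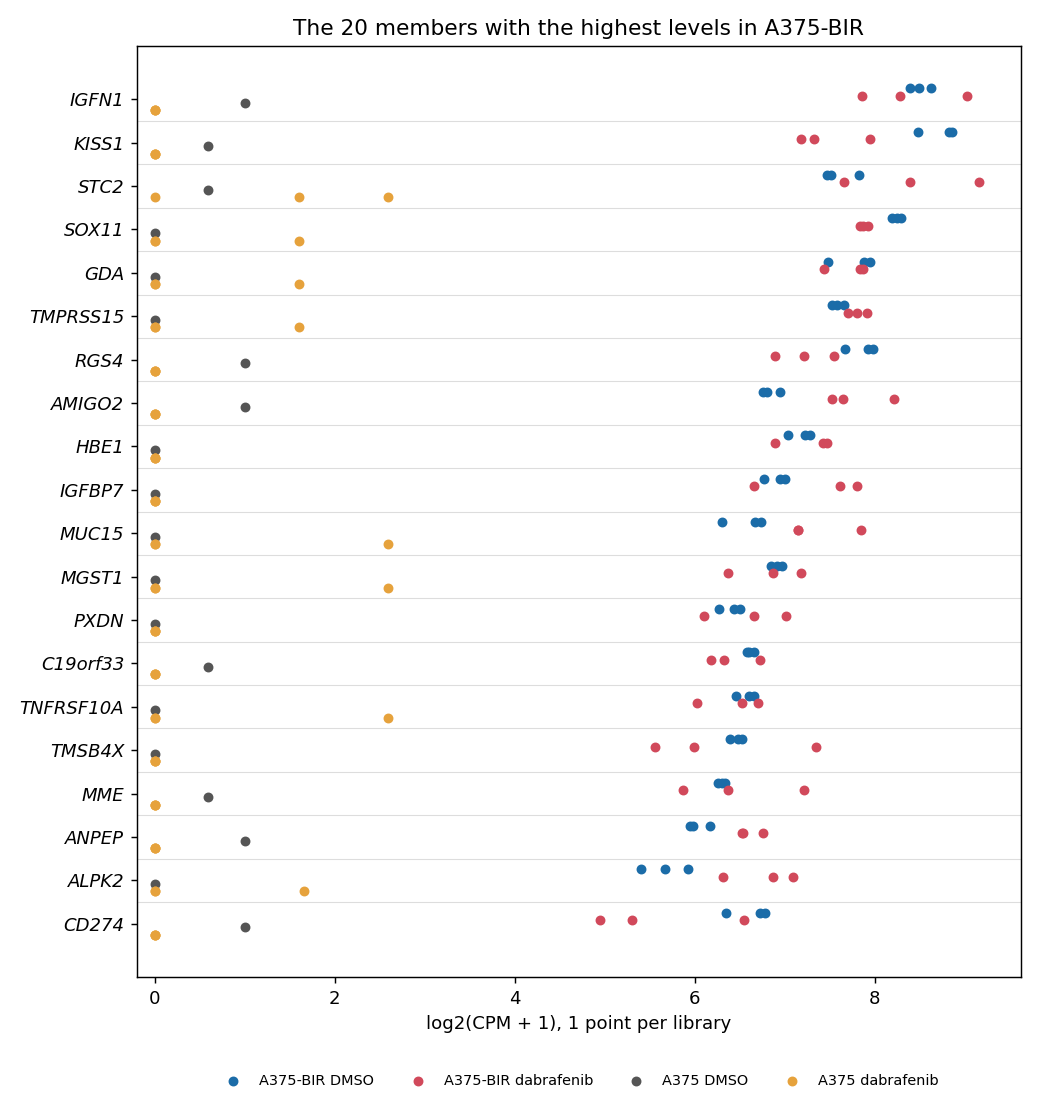
Levels of the 20 genes of the set with the highest mean in A375-BIR, as log2(CPM + 1) with 1 point per library and a colour per group. IGFN1 lies at the top with a mean of 359 CPM, the points of A375 lie at 0, 1 or 2 counts, and the dabrafenib points of KISS1 lie below its DMSO points.

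The genes were sorted by role after their names had been seen. The ligands and cytokines counted 16, led by KISS1, which encodes the kisspeptins, peptides known as suppressors of melanoma metastasis. STC2, a stanniocalcin hormone, followed with a mean of 282 CPM and 3 counts in A375. NOG, which encodes the bone morphogenetic protein antagonist noggin, stood at 42.8 CPM, and BDNF, a neurotrophin, at 34.1 CPM. The cytokine IL18 stood at 24.6 CPM and the axon guidance ligands EFNB2 and SLIT2 at 21.8 and 16.7 CPM. NRG1, a ligand of the ERBB receptors, stood at 16.2 CPM, EDN1, the endothelin-1 precursor, at 12.2 CPM, and VEGFC, the ligand of lymphatic vessel growth, at 10.6 CPM. The cytokine genes CXCL11, IL1B, IL7 and IL6 stood at 13.1, 12.0, 11.9 and 11.5 CPM. The group therefore spanned 10.6 to 303 CPM with a median of 16.4 CPM, and 8 of its 16 genes had no count in A375.

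The 14 secreted matrix, protease and inhibitor genes had a higher median, 34.7 CPM, than the ligands and cytokines. IGFBP7, a binding protein of insulin-like growth factors (chromosome 4, 57030773 to 57110385), stood at 123, 108 and 128 CPM with DMSO and at 196, 223 and 99.7 CPM with dabrafenib, and had 0 counts in every A375 library. Its A375-BIR mean was at least 154-fold above the pooled limit in A375. PXDN, the peroxidase that cross-links basement membrane collagen, stood at 91.4 CPM on average and also had 0 counts in A375. Inhibitors of serine proteases included SERPINB2 at 50.003 CPM and SERPINB7 at 24.1 CPM. CCBE1, a factor of lymphatic development, stood at 69.8 CPM and ESM1, the proteoglycan endocan, at 36.8 CPM.

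Cell surface receptors counted 18. TNFRSF10A, a death receptor for the ligand TRAIL, had the highest mean of them, 90.3 CPM, with 87.2, 96.5 and 100.1 CPM in DMSO and 103, 90.9 and 63.9 CPM in dabrafenib. CD274 encodes PD-L1, the ligand that restrains T cells (chromosome 9, 5450503 to 5470566). It stood at 104, 80.6 and 109 CPM with DMSO and at 29.9, 92.7 and 38.3 CPM with dabrafenib, with 2 counts in the A375 DMSO library. Dabrafenib replicate 2 lay within the DMSO range and the other dabrafenib libraries below it. The change of -0.89 ± 0.30 was not called (adjusted p = 0.134), and without dabrafenib replicate 2 it was called at -1.57 (adjusted p = 9.53e-06). LEPR, the leptin receptor, stood at 37.9 CPM, PTGFR, the receptor of prostaglandin F, at 37.7 CPM, the scavenger receptor gene MSR1 at 37.4 CPM, and the interleukin receptor gene IL31RA at 31.4 CPM. ROS1, the receptor tyrosine kinase of the set, stood at 10.9, 11.7 and 1.73 CPM with DMSO and at 18.5, 3.57 and 25.6 CPM with dabrafenib, with no count in A375. Of the 16 receptor genes tested, 0 were called in either direction by edgeR's quasi-likelihood test and 0 by DESeq2, while 4 had an unadjusted p under 0.05. Over all 10236 genes tested, edgeR called 2.46% and DESeq2 1.04%, and 14.2% had an unadjusted p under 0.05. The lowest level of the receptor genes was that of IL15RA at 10.0 CPM.

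The 4 cell surface peptidases all stood above 40 CPM on average. TMPRSS15, the enteropeptidase that activates trypsinogen in the gut (chromosome 21, 18269116 to 18485879), stood at 189.8, 200.5 and 183 CPM with DMSO and at 208, 223 and 240.3 CPM with dabrafenib, and had 1 count in A375. Its groups did not overlap, and the change of 0.24 ± 0.17 was not called (adjusted p = 0.558). MME, known as neprilysin or CD10, stood at 79.9, 75.3 and 77.7 CPM with DMSO and at 57.7, 148 and 81.8 CPM with dabrafenib, with dabrafenib replicate 2 highest. ANPEP, known as aminopeptidase N or CD13, stood at 60.9, 71.1 and 62.1 CPM with DMSO and at 91.6, 90.9 and 107 CPM with dabrafenib. The dabrafenib values of ANPEP all lay above its DMSO values, but the change of 0.58 ± 0.21 was not called (adjusted p = 0.14). TRHDE, which degrades thyrotropin-releasing hormone, stood at 48.6 CPM on average. Of the 4 peptidase genes 0 were called by edgeR or DESeq2, and 1 had an unadjusted p under 0.05. Over all genes tested, edgeR called 2.46% and DESeq2 1.04%, and 14.2% had an unadjusted p under 0.05.

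Transcription factors and DNA-binding proteins were the largest assigned group, with 24 genes and a median of 16.9 CPM. After SOX11 came NFATC4 at 44.4 CPM, ISL1, a factor of motor neurons and of pancreatic islets, at 41.3 CPM, and VGLL3, a cofactor of TEAD proteins, at 40.1 CPM. The neural factors POU4F1 and POU3F3 stood at 26.2 and 13.8 CPM. TWIST2, a factor of mesenchyme, stood at 19.2 CPM, with 10.9, 25.5 and 12.1 CPM in DMSO and 19.6, 21.4 and 25.6 CPM in dabrafenib. FOXC2 stood at 20.9 CPM, FOXA2, a factor of endoderm, at 12.8 CPM, and ZFP42, a marker of pluripotent cells, at 12.4 CPM. HOXD10, at 12.4 CPM, and TBX18, at 10.3 CPM, did not pass the filter on low counts and were tested only without it. Genes whose symbol starts with ZNF, the zinc finger proteins, numbered 6 in the set out of 515 listed.

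The 18 metabolic and modifying enzymes were led by GDA and by MGST1, a microsomal glutathione transferase, which stood at 117 CPM on average with groups that overlap. Channels and transporters numbered 16, led by SLC17A9, a vesicular nucleotide transporter, at 60.4 CPM and the potassium channel gene KCNK1 at 52.7 CPM. Genes starting with SLC, the solute carriers, numbered 8 of 389 listed. Kinases and signalling regulators numbered 16, led by RGS4, which speeds the shut-off of G proteins, at 192 CPM and by ALPK2 at 80.3 CPM. Adhesion, junction and synapse genes numbered 13, led by AMIGO2 at 169.8 CPM. Desmosome genes among them were DSC3, PKP3 and PKP2, at 14.3, 14.3 and 12.4 CPM. The cell cycle inhibitor gene CDKN2A stood at 11.1 CPM, with 9.99, 9.55 and 22.4 CPM in DMSO and 4.12, 17.8 and 2.56 CPM in dabrafenib, and had 3 counts in A375. Of the 49 genes with no role assigned here, TMSB4X, which encodes an actin-binding peptide, had 0 counts in A375 and a mean of 88.8 CPM, with 162 CPM in dabrafenib replicate 2 against 62.8 and 46.0 CPM in the other dabrafenib libraries. TMSB4X has many near-identical copies in the genome, so that reads can be shared with or lost to them, and its absence from A375 is uncertain for that reason.

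Dabrafenib and DMSO were compared in A375-BIR to ask whether these genes differ between treated and untreated resistant cells. Of the 172 genes that passed the filter on low counts, 11 were higher with dabrafenib and 2 were lower, and 159 were not called. The test was edgeR's quasi-likelihood test, with Benjamini-Hochberg adjustment over all genes and a threshold of 0.05. KISS1 and the urea transporter gene SLC14A1 were lower. Among the higher were EFEMP1, IL6, CFB, PAPPA, NEK9, ALPK2, PLAC8, AMIGO2, STC2 and MUC15. The higher calls made up 6.40% of the genes of the set tested, against 1.36% of the 10236 genes tested, and the lower calls 1.16% against 1.1%, where 2.46% of all genes tested were called in either direction. The median log2 change was 0.21 over the 172 and 0.018 over all genes tested. The filter kept 49 of the 172 genes through their dabrafenib libraries alone and 11 through their DMSO libraries alone, so that those counts support no statement on all 190. Without the filter all 190 were tested, with 11 higher and 6 lower, against 0.803% and 0.777% of 19169 genes (1.58% in either direction), and medians of 0.18 and 0. With DESeq2 in place of edgeR, AMIGO2, ALPK2 and CFB were higher and KISS1 was lower, 3 and 1 genes against 0.576% and 0.459% of all (1.04% in either direction). DESeq2 did not call STC2 (adjusted p = 0.0501) and MUC15 (adjusted p = 0.0835), and its own filter gave the other 7 called genes no adjusted p. The higher count was 6 without any 1 of DMSO replicate 1, DMSO replicate 2 and dabrafenib replicate 1, and 7 without DMSO replicate 3. The lower count was 1 without any 1 of the same 3 libraries and 6 without dabrafenib replicate 2.

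**Figure D3:**
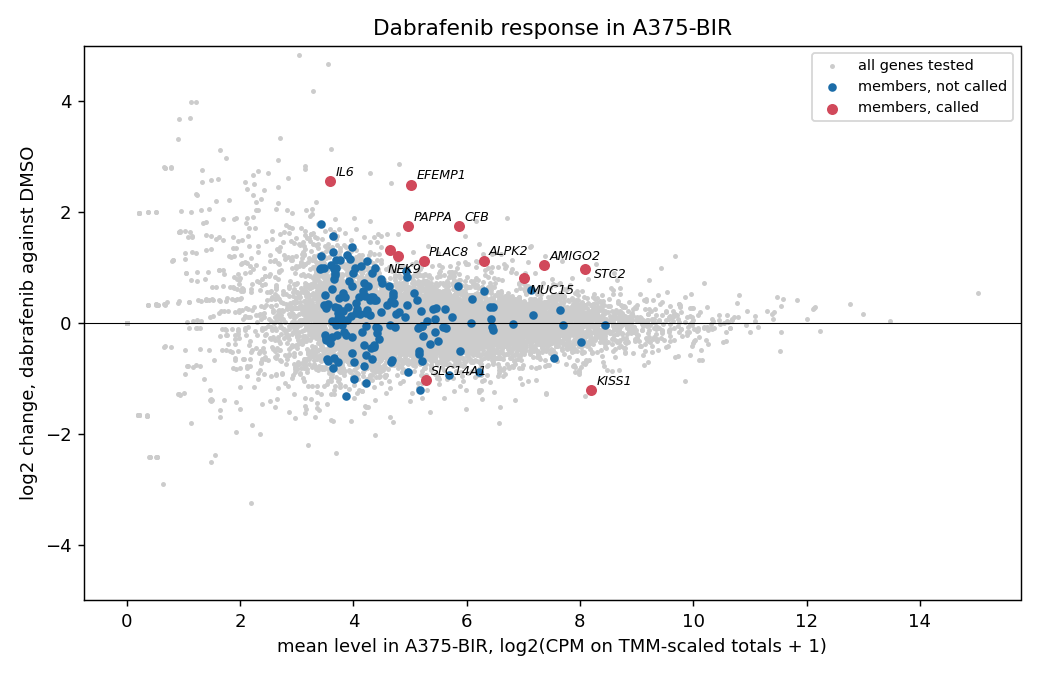
Log2 change with dabrafenib in A375-BIR (vertical axis, edgeR fit) against the mean level in A375-BIR as log2(CPM + 1) on TMM-scaled totals (horizontal axis), for all 10236 genes tested in grey, the 159 genes of the set that were not called and the 13 that were. EFEMP1 and IL6 lie highest at 2.50 and 2.56, and KISS1 and SLC14A1 are the called genes below 0.

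KISS1 (ENSG00000170498, chromosome 1, 204190341 to 204196486, minus strand) stood at 462, 356 and 452 CPM with DMSO and at 159.6, 144 and 245 CPM with dabrafenib. All dabrafenib libraries lay below all DMSO libraries, with means of 424 ± 58.5 (SD, n = 3) and 183 ± 54.5 CPM. The log2 change was -1.22 ± 0.19 (SE, edgeR adjusted p = 7.94e-05), and it was called in each of 13 alternative settings. The A375 DMSO library had 1 count of KISS1 and the A375 dabrafenib libraries had 0, a ratio of pooled levels of 999 (exact 95% counting interval 179 to 39473). SLC14A1 (chromosome 18, 45687025 to 45752520) stood at 59.0, 62.6 and 39.7 CPM with DMSO and at 30.9, 26.7 and 17.9 CPM with dabrafenib. Its groups did not overlap either, and its log2 change was -1.03 ± 0.27 (edgeR adjusted p = 0.0278). The call did not hold when DMSO replicate 1 or 2, or dabrafenib replicate 1 or 3, was left out, with changes of -1.20 to -0.92 when 1 library was left out.

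The promoter regions of genes that moved with dabrafenib are shown to place their levels beside their sequence. RefSeq windows on GRCh38.p14 reach from 250 bases before to 50 bases after the start site and were found for 147 of the 190 genes. Of the genes called in each setting that left out 1 A375-BIR library, KISS1, AMIGO2, ALPK2, CFB and PAPPA had a window, and EFEMP1 had none. Each is given 5′ to 3′ on the gene's strand, and capitals mark matches to the motifs searched. The windows lie at chr1:204196442-204196741 (KISS1, minus strand), chr12:47079902-47080201 (AMIGO2, minus), chr18:58629042-58629341 (ALPK2, minus), chr6:31945845-31946144 (CFB, plus) and chr9:116153541-116153840 (PAPPA, plus).
KISS1: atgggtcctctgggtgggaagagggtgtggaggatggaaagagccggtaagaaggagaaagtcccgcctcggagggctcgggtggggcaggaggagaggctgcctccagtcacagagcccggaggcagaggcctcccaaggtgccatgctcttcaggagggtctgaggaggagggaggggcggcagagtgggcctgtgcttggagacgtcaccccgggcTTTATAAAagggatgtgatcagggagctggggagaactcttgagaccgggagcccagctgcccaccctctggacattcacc
AMIGO2: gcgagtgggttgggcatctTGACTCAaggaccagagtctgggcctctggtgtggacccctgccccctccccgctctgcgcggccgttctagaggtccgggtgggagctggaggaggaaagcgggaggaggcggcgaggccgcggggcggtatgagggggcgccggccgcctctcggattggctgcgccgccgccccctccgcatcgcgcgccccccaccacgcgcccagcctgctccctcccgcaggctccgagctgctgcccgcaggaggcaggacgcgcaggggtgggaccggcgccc
ALPK2: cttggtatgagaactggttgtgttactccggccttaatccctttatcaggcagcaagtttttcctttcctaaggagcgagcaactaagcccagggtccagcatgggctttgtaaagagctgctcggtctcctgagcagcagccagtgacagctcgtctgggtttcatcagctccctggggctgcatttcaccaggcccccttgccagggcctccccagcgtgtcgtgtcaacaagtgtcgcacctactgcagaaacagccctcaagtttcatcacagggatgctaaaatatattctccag
CFB: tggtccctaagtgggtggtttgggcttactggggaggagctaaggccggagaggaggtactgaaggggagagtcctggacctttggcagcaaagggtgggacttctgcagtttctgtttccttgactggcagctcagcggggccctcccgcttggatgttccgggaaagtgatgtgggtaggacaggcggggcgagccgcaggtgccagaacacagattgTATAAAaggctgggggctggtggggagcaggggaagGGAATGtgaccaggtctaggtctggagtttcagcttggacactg
PAPPA: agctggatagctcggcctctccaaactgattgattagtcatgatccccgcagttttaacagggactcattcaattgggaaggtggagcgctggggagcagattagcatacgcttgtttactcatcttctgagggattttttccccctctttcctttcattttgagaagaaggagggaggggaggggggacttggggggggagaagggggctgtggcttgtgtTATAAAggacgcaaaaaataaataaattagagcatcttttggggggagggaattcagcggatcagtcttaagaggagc

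Positions in these windows count from the start site, with 1 as its own base and -1 as the base before it. Searched on both strands were TATAAA, the AP-1 site TGANTCA and the TEAD site GGAATG. In the windows printed here, the first of these motifs began at -29 in KISS1, at -30 in CFB and at -28 in PAPPA. In KISS1 it overlapped a match on the other strand from -31. AMIGO2 held an AP-1 match from -231 and CFB a TEAD match from 7. ALPK2 held no match. Of 15166 windows of protein-coding genes, 9.47% held TATAAA, 5.68% the AP-1 site and 11.6% the TEAD site. A match describes letters only. Shares over the set are not compared, because 77.4% of its genes had a window, as of all protein-coding genes listed, under the 80% set for such a comparison.

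Of the ligands and cytokines 2 of 14 tested were higher and 1 was lower. Of the secreted matrix, protease and inhibitor genes 3 of 14 were higher and 11 were not called. Over all genes tested 1.36% were higher and 1.1% lower, and DESeq2 called 1 gene in each of these groups. The filter on low counts, at about 17.5 CPM in a library, kept 6 of the 14 ligand genes and 5 of the 14 matrix genes through their dabrafenib libraries alone and none through DMSO alone, so that these counts are no measure of the groups. Without the filter 2 of 16 and 3 of 14 were higher and 1 of each was lower, with median log2 changes of 0.39 and 0.73 against 0 over the 19169 genes. EFEMP1, IL6 and PAPPA are the called genes that passed through dabrafenib alone. Without the filter they were also called, with changes of 2.48 (edgeR adjusted p = 1.38e-10), 2.55 (adjusted p = 0.000363) and 1.73 (adjusted p = 1.24e-05). EFEMP1, which encodes the matrix protein fibulin-3 (ENSG00000115380, chromosome 2, 55865967 to 55924139), stood at 8.18, 12.7 and 10.4 CPM with DMSO and at 74.1, 57.1 and 33.2 CPM with dabrafenib. The groups were widely apart, with means of 10.4 ± 2.28 and 54.8 ± 20.5 CPM (SD, n = 3). Its log2 change was 2.50 ± 0.32 (edgeR adjusted p = 5.17e-06). IL6, the inflammatory cytokine (ENSG00000136244, chromosome 7), stood at 4.54, 2.12 and 3.45 CPM with DMSO and at 23.7, 24.96 and 10.2 CPM with dabrafenib, and had 0 counts in A375. Its DMSO values were near the level of 3 counts, so that the change of 2.56 ± 0.56 (edgeR adjusted p = 0.0067) rests on few counts in that group. The call of IL6 ended without DMSO replicate 2 (2.29, adjusted p = 0.0649) and without dabrafenib replicate 1 (2.45, adjusted p = 0.0629). It was tested in 8 of the alternatives, and its adjusted p there ran from 0.000363 to 0.0649.

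CFB, complement factor B (chromosome 6, 31945650 to 31952084), stood at 29.1, 22.3 and 29.3 CPM with DMSO and at 88.5, 64.2 and 120.1 CPM with dabrafenib. The log2 change was 1.75 ± 0.26 (edgeR adjusted p = 4.37e-05). The gene model of the neighbouring complement gene C2 overlaps that of CFB on the same strand, so that the split of reads between them is uncertain. PAPPA, the protease pappalysin-1 that frees insulin-like growth factors (chromosome 9, 116153804 to 116402322), stood at 13.6, 16.97 and 15.5 CPM with DMSO and at 69.0, 41.0 and 33.2 CPM with dabrafenib. Its change was 1.75 ± 0.31 (edgeR adjusted p = 0.000496), and 1.36 (adjusted p = 0.0497) without dabrafenib replicate 1. Neither CFB nor PAPPA had overlapping groups. STC2 (chromosome 5, 173314713 to 173329503) stood at 176, 181 and 226 CPM with DMSO and at 336, 572 and 202 CPM with dabrafenib. Dabrafenib replicate 2 of STC2 was the highest and replicate 3 lay within the DMSO range. Its change was 0.97 ± 0.25 (edgeR adjusted p = 0.0417) and 0.54 without dabrafenib replicate 2. The call of STC2 ended without any 1 DMSO library and without dabrafenib replicate 1.

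**Figure D4:**
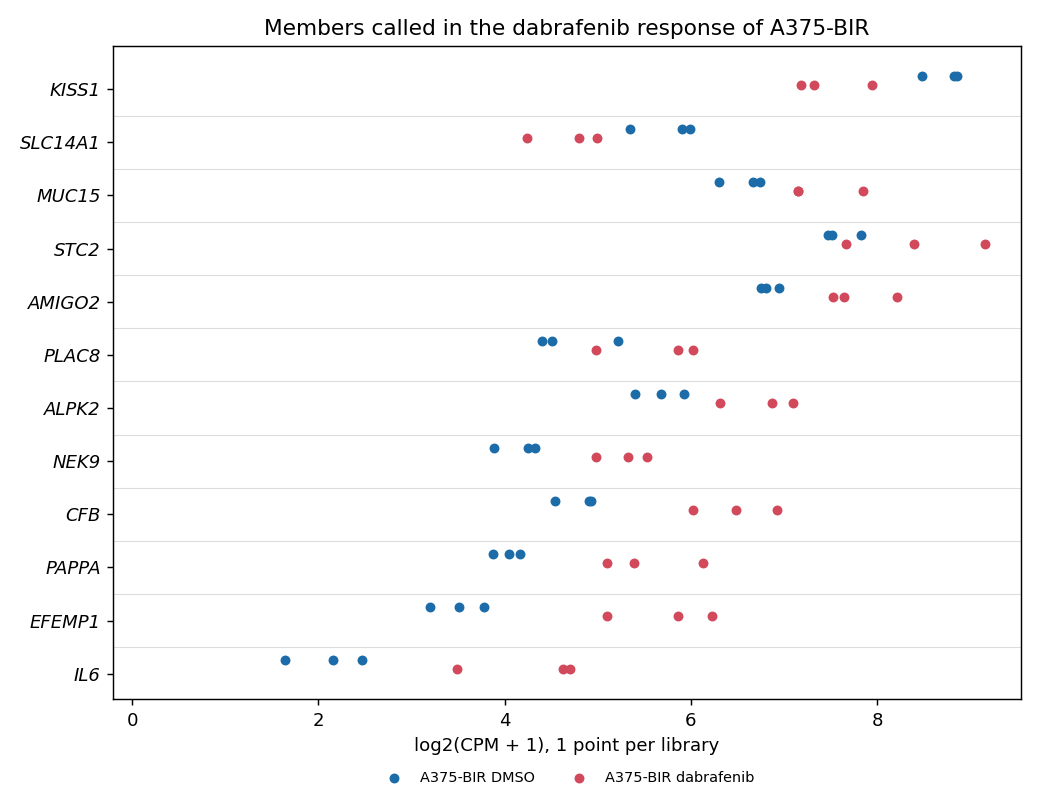
Levels of 12 of the 13 genes of the set called in the dabrafenib response, as log2(CPM + 1) with 1 point per A375-BIR library, ordered by log2 change. KISS1 and SLC14A1 have their dabrafenib points on the left of their DMSO points, the other 10 mostly on the right, and the groups of STC2 and PLAC8 overlap.

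Of the kinases and signalling regulators 2 of 12 tested were higher, of the adhesion, junction and synapse genes 1 of 13 and of the genes with no role assigned 2 of 44, against the 1.36% of all genes tested. DESeq2 called 1, 1 and 0 genes of these groups. The filter on low counts kept 2, 3 and 13 of their genes through dabrafenib libraries alone and 1, 2 and 3 through DMSO alone. The counts of calls are therefore no measure of the groups. Without the filter 2 of 16, 1 of 13 and 2 of 49 were higher, and 1 kinase or signalling gene was lower. Over the 19169 genes these shares were 0.803% higher and 0.777% lower. AMIGO2, an adhesion protein of neurons (chromosome 12, 47075707 to 47079951), stood at 111, 107 and 123 CPM with DMSO and at 295, 184 and 199 CPM with dabrafenib. The groups did not overlap, and the change was 1.05 ± 0.18 (edgeR adjusted p = 0.000445). ALPK2, an alpha-type protein kinase (chromosome 18, 58481247 to 58628957), stood at 59.95, 41.4 and 50.1 CPM with DMSO and at 116, 78.4 and 135 CPM with dabrafenib. Its groups did not overlap either, with a change of 1.12 ± 0.22 (edgeR adjusted p = 0.00205). AMIGO2 and ALPK2 were called in each of 13 alternative settings, as was CFB. EFEMP1 and PAPPA were called in each of the 12 that gave them an adjusted p.

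NEK9, a mitotic kinase gene (chromosome 14, 75079353 to 75127344), stood at 19.1, 18.03 and 13.8 CPM with DMSO and at 45.3, 39.2 and 30.7 CPM with dabrafenib, with groups that do not overlap. Its change was 1.20 ± 0.30 (edgeR adjusted p = 0.0194), and the call ended without any 1 DMSO library or dabrafenib replicate 1. NEK9 had 2 counts over the A375 libraries. MUC15, a membrane mucin (chromosome 11, 26559033 to 26572233), stood at 101, 106 and 77.7 CPM with DMSO and at 141, 141 and 230.1 CPM with dabrafenib. Its change was 0.81 ± 0.21 (edgeR adjusted p = 0.0245), with a call that ended without any 1 DMSO library or dabrafenib replicate 3. PLAC8 stood at 21.8, 20.2 and 36.3 CPM with DMSO and at 63.8, 57.1 and 30.7 CPM with dabrafenib. Dabrafenib replicate 3 of PLAC8 lay within its DMSO range. The change of 1.12 ± 0.29 (edgeR adjusted p = 0.0245) was no longer called when DMSO replicate 1 or 2, or dabrafenib replicate 1, was left out. All 13 calls held without dabrafenib replicate 2.

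Groups that do not overlap were more frequent than calls. Of all 190 genes, with no filter on low counts, 32 had all dabrafenib libraries above all DMSO libraries (16.8%) and 14 had them all below (7.37%). Of the 9472 genes with a mean of at least 10 CPM in A375-BIR, the level the rule asks for, these shares were 7.62% and 10.1%. Among genes of the set close to the threshold, chosen after their values were seen, KCNK1 stood at 63.6, 56.2 and 94.9 CPM with DMSO and at 39.1, 44.6 and 17.9 CPM with dabrafenib (-0.94 ± 0.27, edgeR adjusted p = 0.0501). ESM1 stood at 48.1, 47.7 and 60.4 CPM with DMSO and at 16.5, 42.8 and 5.11 CPM with dabrafenib (-1.20 ± 0.35, adjusted p = 0.059). RGS4 stood at 243, 203 and 252 CPM with DMSO and at 117, 148 and 187 CPM with dabrafenib (-0.64 ± 0.19, adjusted p = 0.058). In KCNK1, ESM1 and RGS4 no dabrafenib library reached the lowest DMSO library. Without the filter on low counts, these genes and CD274 were called lower beside KISS1 and SLC14A1, and so they were without dabrafenib replicate 2. The glutamate transporter gene SLC1A3 stood at 19.1, 21.2 and 25.9 CPM with DMSO and at 49.4, 35.7 and 33.2 CPM with dabrafenib (0.95 ± 0.29, adjusted p = 0.0745). Changes of genes not called ran from -1.31 to 1.80.

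Globin genes were a pair whose known tissue is red blood cells. HBE1, which encodes the epsilon globin of the embryo (chromosome 11, 5268345 to 5505652, minus strand), stood at 154, 130.5 and 148 CPM with DMSO and at 176, 171 and 118 CPM with dabrafenib. It had 0 counts in all A375 libraries, and its A375-BIR mean of 149.7 CPM was at least 157-fold above the pooled limit there. HBG2, a fetal gamma globin gene, stood at 9.99, 18.03 and 8.63 CPM with DMSO and at 12.4, 8.91 and 7.67 CPM with dabrafenib, and also had 0 counts in A375. Neither was called (0.15 ± 0.18 and -0.27 ± 0.50). The neighbouring adult globin genes HBB and HBD had 2 and 0 counts over the A375-BIR libraries, and HBG1, whose sequence is nearly that of HBG2, had 1. OR51B4, an olfactory receptor gene within the annotated span of HBE1, stood at 13.2 CPM on average with 0 counts in A375. The gene models of HBE1, HBG2 and OR51B4 overlap on the same strand, so that the division of reads among them is uncertain. The alpha globin genes HBA1 and HBA2 had 0 counts in every library.

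Some genes of the set lie next to each other. Within 500000 bases of another gene of the set lay 21 genes, in 9 clusters. No share over all protein-coding genes stands beside this count, which is a description without a test. KISS1 and GOLT1A are adjacent on the same strand within 23.8 kb and are the only protein-coding genes listed in that span. GOLT1A, a gene of Golgi transport, stood at 19.98, 26.5 and 22.4 CPM with DMSO and at 20.6, 24.96 and 12.8 CPM with dabrafenib. Its groups overlapped and its change of -0.17 ± 0.34 was not called (adjusted p = 0.89), while the change of KISS1 was -1.22. MAP3K21, KCNK1 and SLC35F3 are the 3 protein-coding genes of a stretch of 997 kb on chromosome 1, with means of 36.1, 52.7 and 12.1 CPM. All 3 were lower on average with dabrafenib, at -0.50 ± 0.28, -0.94 ± 0.27 and -0.63 ± 0.49, and none was called. ZFP42 and TRIML2 fill a stretch of 114 kb on chromosome 4, at 12.4 and 50.6 CPM, with 0 counts each in A375. COPS4, a subunit of the COP9 signalosome, and PLAC8 lie within 103 kb on the same chromosome, at 13.8 and 38.3 CPM. PTGFR, IFI44L and ADGRL4 lie on chromosome 1 around IFI44, which had 12 counts in A375 and was therefore no part of the set. The protease inhibitor genes SERPINB7 and SERPINB2 lie on chromosome 18 within 151 kb, and SERPINB10, which overlaps SERPINB2, had 4 counts in A375-BIR.

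**Figure D5:**
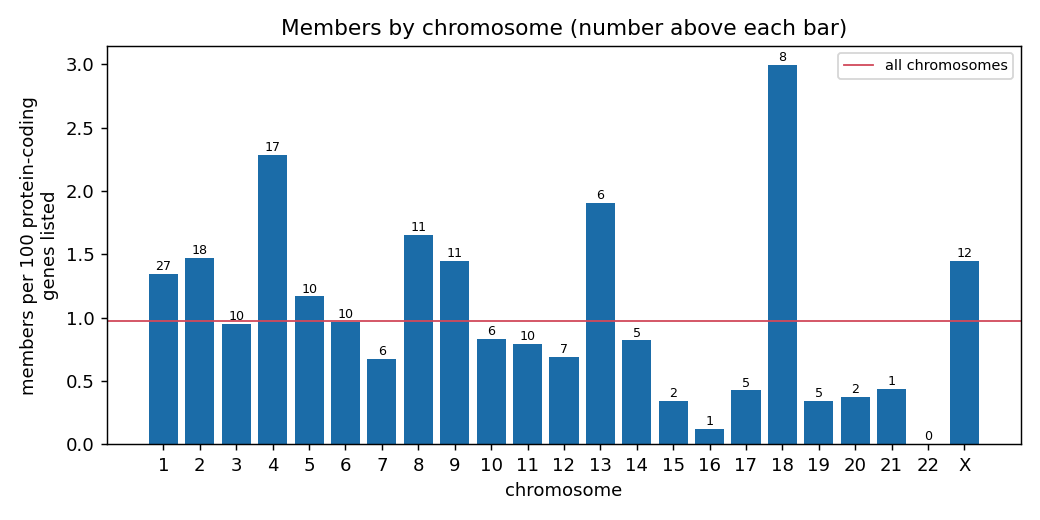
Genes of the set per 100 protein-coding genes listed (vertical axis) on each chromosome (horizontal axis), with the number of genes of the set above each bar and the rate over all chromosomes as a line. Chromosome 18 has the highest bar at 3.00 with 8 genes, chromosome 4 follows at 2.28 with 17, and chromosome 22 has none.

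Chromosome 1 held 27 of the genes, chromosome 2 18 and chromosome 4 17. Per 100 protein-coding genes listed, chromosome 18 held 3.00, chromosome 4 2.28 and chromosome 13 1.90. Chromosome 4 thus held 8.95% of the set and 3.80% of the genes listed. Chromosome 19 held 5 genes against 1454 listed, chromosome 16 held 1, which was FOXC2, and chromosome 22 held 0 of 430 listed. These shares are a description, without a test. In GENCODE 29, 103 of the 190 genes overlap another gene on the other strand and 72 overlap one on the same strand. The strand setting of the counting is not given in the sources used here, so that reads of such genes and of their partners cannot be told apart.

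Lists of genes from pathways and cell states were set beside the set. The dedifferentiated melanoma state with high AXL had 7 of its 38 listed genes in the set, among them CD274, BDNF, TWIST2, SLIT2, IL1B and IL6. Of its 30 genes tested, 6 were higher with dabrafenib and 24 were not called, and among its genes of the set IL6 was called. Over all genes tested 1.36% were higher, the share to hold beside each list. DESeq2 called 1 of the 30, the A375-BIR libraries alone gave 3 higher, and leaving out DMSO replicate 1, 2 or 3 gave 3, 1 and 3. Without dabrafenib replicate 2 the count was 4 higher and 6 lower, and without the filter 6 higher and 3 lower. The developmental transcription factors had 6 of 158 in the set, among them SOX11, FOXC2, TWIST2, HOXD10 and TBX18. Of 41 cytokines and chemokines IL18, CXCL11, IL1B, IL7 and IL6 were in the set, and of 14 tested IL6 was higher and IL24 lower, with no call by DESeq2 or in the A375-BIR libraries alone and none without dabrafenib replicate 1. Growth factors gave BDNF, NRG1 and VEGFC out of 60, none of which was called. Of the 24 growth factors tested 5 were higher and 19 were not called, but the higher ones numbered 1 by DESeq2, 2 in the A375-BIR libraries alone, and 2, 1 and 1 without DMSO replicates 1, 2 and 3. Without dabrafenib replicate 2, 4 growth factors were higher and 4 lower, and without the filter 4 higher and 2 lower. The complement list gave CFB, which was higher along with C1R, C3 and CFI among 8 tested, and 4 were not called. DESeq2 called 1 of them, as did edgeR at a mean count of at least 20, and 3 or 4 were called when 1 A375-BIR library was left out. ROS1 was the gene of the set among 39 receptor tyrosine kinases. Of the 17 tested, edgeR and DESeq2 called 0, and 2 were higher without dabrafenib replicate 2. An unadjusted p under 0.05 was reached by 4, against 14.2% of all genes tested.

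Of the TGF-beta and BMP pathway genes the set included NOG, which was not called, while 4 of the 40 tested were higher and 36 were not called. That count was 2 by DESeq2, 2 without DMSO replicate 1 or 2, and 8 without dabrafenib replicate 2. The interferon list gave IFI44L, at 48.1, 50.9 and 36.3 CPM with DMSO and at 76.2, 67.8 and 71.6 CPM with dabrafenib, a change of 0.67 ± 0.22 that was not called (edgeR adjusted p = 0.107), and 1 of its 30 tested genes was higher, with 0 without any 1 DMSO library or dabrafenib replicate 1 and 4 without dabrafenib replicate 2 or 3. The cancer-testis antigens gave CT83, at 17.3, 12.7 and 27.6 CPM with DMSO and at 13.4, 16.05 and 5.11 CPM with dabrafenib. Of the 12 antigens tested, edgeR and DESeq2 called 0. An unadjusted p under 0.05 was reached by 1, against 14.2% of all genes tested. Lower was 1 antigen without the filter, or without DMSO replicate 2, dabrafenib replicate 2 or dabrafenib replicate 3. Genes whose expression depends on ERK gave IL6, which was higher, while 3 of the 21 tested were lower (1.1% over all genes) and 17 were not called. The lower ones were DUSP5, ETV4 and IER3. None of the list was lower in the A375-BIR libraries alone, with or without the replicate block, or when any 1 DMSO library was left out, and DESeq2 called 1 gene. The melanocytic list and the WNT list had no gene in the set. Of the melanocytic list 3 of 17 tested were higher and 14 were not called, and of the WNT list 2 of 19 were higher and 17 were not called. The melanocytic count was 1 in the A375-BIR libraries alone and 2 or 3 when 1 A375-BIR library was left out. The WNT count was 0 by DESeq2 and 0 to 2 when 1 was left out, with 0 without DMSO replicate 2 or 3 and 1 without DMSO replicate 1, dabrafenib replicate 1 or dabrafenib replicate 2.

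Markers of cell types were counted in each library. The 11 melanocyte markers summed to 222 to 341 CPM in A375-BIR, against 1163 CPM in the A375 DMSO library and 2577 to 3346 CPM in the A375 dabrafenib libraries. MITF and SOX10, which define the lineage, were detected in every A375-BIR library. MITF stood at 158 to 216 CPM there and at 186 to 328 CPM in A375. SOX10 stood at 37.1 to 74.9 CPM in A375-BIR, below every A375 library, and at 830 to 967 CPM in the A375 dabrafenib libraries. DCT stood at 0 to 26.7 CPM in A375-BIR and at 332 to 1950 CPM in A375. TYR was at 0 in A375-BIR and at 10.1 to 40.5 CPM in A375. MLANA and SLC45A2 were also at 0 in A375-BIR, but MLANA had 1 count over the A375 libraries and SLC45A2 had 0. The 14 fibroblast markers summed to 81.1 to 127 CPM in A375-BIR and 121 to 163 CPM in A375, and DPT was at 0. The 11 epithelial markers summed to 17.3 to 23.7 CPM in A375-BIR and 8.11 to 20.1 CPM in A375, most of it in A375-BIR from SFN, a gene of the set, with EPCAM, GRHL2, KRT5 and KRT19 at 0. The 9 endothelial markers summed to 8.24 to 22.4 CPM in A375-BIR and 2.16 to 10.5 CPM in A375, most of it from TIE1, with VWF, CDH5, CLDN5 and EMCN at 0. The 13 leukocyte and erythroid markers summed to 24.2 to 46.0 CPM in A375-BIR and 17.3 to 26.3 CPM in A375, most of it from CD68, with CD3E and TYROBP at 0. The 11 neuronal markers summed to 98.4 to 126 CPM in A375-BIR and 89.2 to 171 CPM in A375. The part of these markers in the levels of the set was not tested.

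Several genes lay close to the thresholds of the rule. Just inside the level of 10 CPM were SMOC1 at 10.07, GRIA4 at 10.06 and IL15RA at 10.02 CPM, and just outside were DSC2 at 9.89, GABRA5 at 9.88 and GRK3 at 9.76 CPM. With 4 A375 counts, 1 above the limit, 17 protein-coding genes reached the level, led by ANKRD1 at 337, TCF4 at 111 and HAPLN1 at 73.3 CPM. Of the genes left out by symbol, ADAMTS12 at 124 CPM and KRT80 at 63.5 CPM were the highest, each with 0 counts in A375.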

How the data were processed

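RNA of A375 and A375-BIR cells was measured in 12 libraries of 3′ tags (QuantSeq FWD, single-end reads, per the labels' protocols). The authors deposited raw read counts per gene, without normalization, on hg38 per the submitters' processing notes. Not given in the sources used here are the aligner, counter, annotation and use of strand. Of the files, 10 list 33694 human genes, and 2, of A375 DMSO replicates 2 and 3, list 31053 mouse genes and were left out. Lines of reads given to no gene stayed out of all totals, so that genes hold 20.4% to 31.1% of each file's sum.

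Levels are CPM on raw gene totals. Gene types and positions come from GENCODE 29 (GRCh38). Counts of 10 libraries were fitted with edgeR 4.0.16 in R 4.3.3 (filterByExpr at a minimum count of 10, TMM, glmQLFit with robust estimation, 1 coefficient per group, 6 residual degrees of freedom). The design, written for 12 libraries, was kept with 10. Calls used Benjamini-Hochberg adjustment over the 10236 genes tested and a threshold of 0.05. A standard error is the size of the log2 change divided by the square root of F. Alternatives were DESeq2 1.42.0, other filters, scaling and libraries, and a replicate block. The procedure was also run on simulated counts that gave all genes 1 common spread. That run does not cover the wider spread among the dabrafenib libraries.

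The genes and lists were chosen with earlier results of these data known. Named genes are the 20 highest, all called genes, up to 4 per list and those at the thresholds. Others were named by role or position after their values were seen. Results for some genes are not reported here.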

Additional observations from a re-analysis of the deposited data

How the results depend on the processing

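The number of genes in the set was 77 at 0 A375 counts, 333 at up to 10 counts, 342 at a mean of 5 CPM, 85 at a mean of 20 CPM, and 185 to 373 when 1 library was left out, the last without A375 DMSO replicate 1, which was an alternative chosen after seeing the data. Over all genes, 252 were called in the dabrafenib response of A375-BIR, 106 by DESeq2, 125 in the A375-BIR libraries alone and 106 to 558 when 1 library was left out. Of the set, 11 were higher, 3 by DESeq2, 6 in the A375-BIR libraries alone, and 6 to 15 when 1 library was left out. The number lower was 2, and 1 by DESeq2, 6 without a filter, 1 in the A375-BIR libraries alone and 1 to 6 when 1 library was left out. Libraries with the same replicate number had deviations that correlated at 0.065, -0.053 and -0.12, and those with different numbers at -0.109 to 0.138. Pairing by number was therefore not seen, but these values cannot exclude it. With the replicate block, in the A375-BIR libraries alone, 166 genes were called, 9 of the set higher and 3 lower. Of 232 values of named genes under the alternatives none reversed, 33 lost their call and 12 gained one. At 10 CPM the smallest A375-BIR library holds few counts of a gene, so that changes of the lowest genes of the set were not detectable unless large.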

Other observations

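Among genes that do not encode proteins, 22 long noncoding and antisense RNAs met the same limits, with at most 3 counts in A375 and a mean of at least 10 CPM in A375-BIR. The highest was SFTA1P, at 87.2, 78.5 and 77.7 CPM with DMSO and at 49.4, 42.8 and 69.0 CPM with dabrafenib, with 0 counts in A375. Its dabrafenib libraries all lay below its DMSO libraries, and the change of -0.63 was not called (edgeR adjusted p = 0.147). LINC02334 stood at 39.1, 44.5 and 41.4 CPM with DMSO and at 83.4, 42.8 and 104.8 CPM with dabrafenib, with 1 count in A375 (0.88, edgeR adjusted p = 0.0543). Its closest gene of the set is SOHLH2. LINC02742, whose closest gene of the set is BDNF, stood at 22.7, 33.9 and 24.2 CPM with DMSO and at 31.9, 42.8 and 40.9 CPM with dabrafenib, with 0 counts in A375.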
